A study of Homo sapiens with 6 samples.

Results

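Aldehyde dehydrogenases (ALDH) are NAD(P)+-dependent enzymes that oxidise aldehydes to carboxylic acids. The members followed here are the aldehyde dehydrogenase genes ALDH1A1, ALDH1A3, ALDH1B1, ALDH2, ALDH3A1, ALDH3A2, ALDH3B1, ALDH7A1, ALDH9A1 and ALDH16A1, listed by symbol and matched to the Entrez identifiers of the count table. Of these 10 genes, 8 had a row among the 12703 genes of the table, and ALDH1A1 and ALDH16A1 were not analysed here. RNA came from PC3 cells, an established prostate cancer cell line from a bone metastasis. The 3 control lines (Lenti-ORF control) were stably transduced with negative-control lentiviral particles, and the 3 GCNT1 overexpression lines with particles carrying GCNT1, the glycosyltransferase that forms the core 2 branch of O-glycans. Both groups are therefore transduced PC3 derivatives, no untransduced cells are included, and whether each line arose from 1 clone or from separate transductions was not given in the sources used here. The p values thus measure the spread between these samples only.

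The family is best known for 3 kinds of work. The ALDH1A enzymes make retinoic acid, the ligand of nuclear retinoic acid receptors, from retinaldehyde, and they are the usual source of the ALDH activity by which tumour-initiating cells are sorted in prostate and other cancers. ALDH2 and ALDH1B1 clear acetaldehyde and lipid aldehydes in mitochondria, while the ALDH3 enzymes oxidise medium and long chain aldehydes, including those formed by lipid peroxidation. ALDH7A1 and ALDH9A1 act in lysine breakdown and in the synthesis of carnitine and GABA. As the RNA is bulk RNA, fewer expressing cells and less RNA per cell cannot be told apart.

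The libraries held between 11392213 and 13825704 counts. GCNT1 itself was counted 9, 13 and 8 times in controls 1 to 3 and 13, 16 and 35 times in overexpressing lines 1 to 3 (log2 fold change 0.98, edgeR standard error 0.37, adjusted p = 0.0362), and without overexpressing replicate 3 its log2 fold change was 0.49 with an adjusted p of 0.269. Without control replicate 1 or 3 the adjusted p of GCNT1 was 0.0920 or 0.0944. Groups are named as labelled. The study also assayed GCNT1 in its PC3 overexpression model by real-time PCR, by ELISA and by staining of cells, which were not analysed here. All 4 epithelial markers (KRT8, KRT18, KRT19 and EPCAM) were in the table, with summed levels of 818 to 866 CPM (counts scaled to library size with edgeR's TMM factors) in controls and 625 to 709 with overexpression. Of 17 markers of blood, endothelial, stromal, muscle and liver cells only PECAM1, COL1A1 and COL3A1 were in the table. Their summed level was 128 to 179 CPM in controls and 48.1 to 50.6 CPM with overexpression, and most of it was COL3A1. COL1A1 and COL3A1 were lower with overexpression (log2 fold changes -0.77 and -1.94), while PECAM1 was higher (1.31), and the part of these genes in the results below was not tested.

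The ALDH genes did not move together: ALDH3B1 and ALDH3A1 rose with GCNT1 overexpression, ALDH3A2, ALDH2 and ALDH7A1 fell past both thresholds of the study, and ALDH1A3, by far the most abundant, fell by slightly less than the fold change threshold. The largest rise was the 2.87-fold higher level of ALDH3B1, and the largest fall was the 2.09-fold lower level of ALDH3A2. ALDH9A1 and ALDH1B1 did not pass the test. A gene counted as differentially expressed when its adjusted p was under 0.05 and its log2 fold change at least 0.58 in size, with p from the quasi-likelihood test of edgeR, Benjamini-Hochberg adjusted over the 12703 genes. Of the 8 members 5 were differentially expressed, 2 higher and 3 lower, where 19.3% of all genes were (8.28% higher and 11.1% lower). On the adjusted p value alone 6 of 8 passed, 2 higher and 4 lower, against 57.6% of all genes (28.3% higher and 29.3% lower). The libraries of the groups did not overlap in 7 of 8 members, with 2 higher and 5 lower, as in 62.5% of all genes (30.9% higher and 31.6% lower). The median log2 fold change of the 8 members was -0.33, and that of all genes was 0.00095. With 3 libraries against 3, an exact permutation test of a single gene cannot give a p below 0.1, so the calls rest on the fit across all genes.

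**Figure D1:**
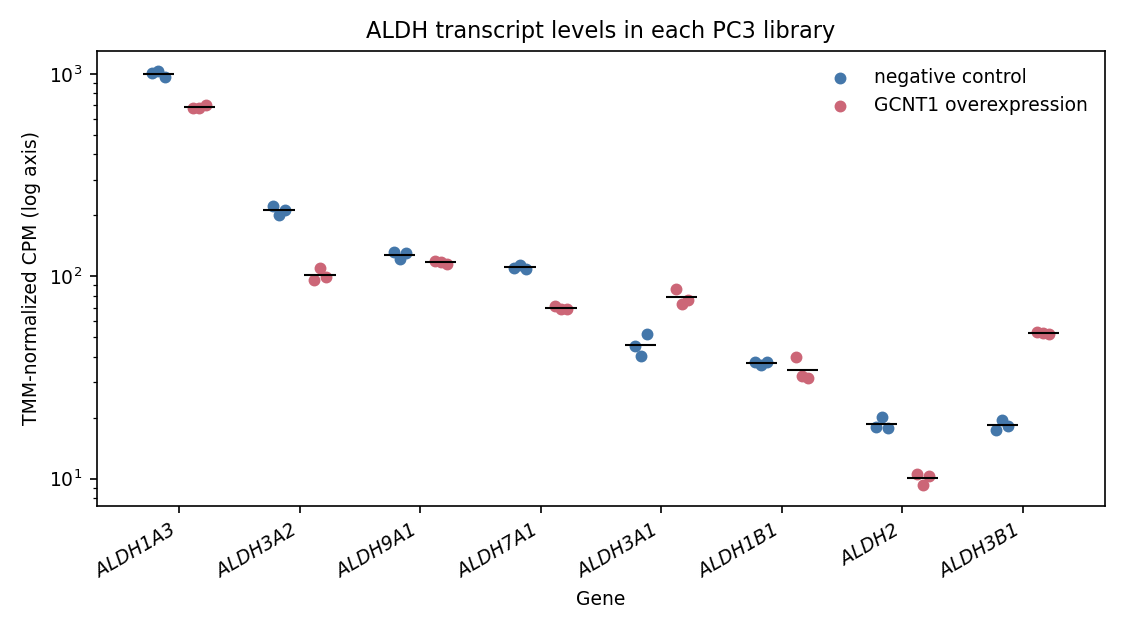
TMM-normalized CPM on a log axis (y) for the 8 ALDH genes (x), with 1 point per library and a bar at the mean of the 3 libraries of each group. The points of the groups overlap in ALDH1B1 alone, and ALDH3B1 and ALDH3A1 are the genes whose overexpressing libraries lie above the controls.

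To show where these genes start, the 250 bases before the RefSeq gene start (GRCh38.p14, plus strand) are printed for the most abundant gene, the largest fall and the largest rise, with each CpG dinucleotide in capitals. ALDH1A3, chr15:100879581-100879830, has 38 CpG dinucleotides, ALDH3A2, chr17:19647886-19648135, has 9, and ALDH3B1, chr11:68008297-68008546, has 3.
ALDH1A3: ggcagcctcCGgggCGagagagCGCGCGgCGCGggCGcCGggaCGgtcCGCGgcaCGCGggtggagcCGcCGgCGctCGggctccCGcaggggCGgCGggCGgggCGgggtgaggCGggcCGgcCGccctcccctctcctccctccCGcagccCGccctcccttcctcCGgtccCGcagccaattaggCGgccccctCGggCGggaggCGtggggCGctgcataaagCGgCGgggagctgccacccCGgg
ALDH3A2: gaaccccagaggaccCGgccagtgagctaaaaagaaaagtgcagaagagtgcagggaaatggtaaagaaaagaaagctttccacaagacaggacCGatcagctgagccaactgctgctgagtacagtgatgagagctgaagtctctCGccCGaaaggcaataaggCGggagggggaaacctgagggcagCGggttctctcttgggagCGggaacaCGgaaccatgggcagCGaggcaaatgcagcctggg
ALDH3B1: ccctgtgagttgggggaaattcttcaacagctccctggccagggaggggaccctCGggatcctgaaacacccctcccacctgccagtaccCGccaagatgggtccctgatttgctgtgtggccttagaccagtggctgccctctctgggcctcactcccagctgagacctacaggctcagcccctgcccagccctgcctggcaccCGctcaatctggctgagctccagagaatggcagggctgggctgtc
Among the 27305 promoters of the RefSeq table the median is 11 CpG dinucleotides in this window, and 96.8%, 46.2% and 23.6% of promoters have fewer than ALDH1A3, ALDH3A2 and ALDH3B1. Sequences matched 6 of the 8 members, and ALDH2 and ALDH3A1 had no entry. Windows reaching 50 bases past the start were searched on both strands for TNGCGTG (aryl hydrocarbon response element core), TGACNNNGC (antioxidant response element core), a direct repeat of AGGTCA with 5 bases between (a retinoic acid response element), TATAAA and CCAAT. These motifs are held by 5.51%, 13.6%, 0.00366%, 12.0% and 35.7% of all promoters, and by 7.28%, 15.1%, 0%, 5.57% and 36.8% of the 10236 promoters of genes tested here. Among the 6 members only CCAAT was found, once each in ALDH1A3, ALDH1B1 and ALDH7A1, and where PC3 cells start these transcripts was not measured.

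ALDH3B1 and ALDH3A2 had the largest log2 fold changes of the 8 members in size. All positions below are those of RefSeq on GRCh38.p14. ALDH3B1 (Entrez gene 221), on chromosome 11 from 68008547 to 68029276, encodes a membrane-associated enzyme that oxidises long chain and lipid-derived aldehydes. It had 218, 242 and 214 reads in the control lines and 616, 718 and 733 reads in the overexpressing lines, so every overexpressing library held over 600 counts and no control more than 242. Its level rose from a mean of 18.3 ± 1.07 CPM to 52.5 ± 0.66 CPM (SD, n = 3 each). The log2 fold change was 1.52 (edgeR standard error 0.07, adjusted p = 1.22e-09), and it ranked 197 from the top of the 12703 genes.

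ALDH3A1 (Entrez gene 218), on chromosome 17 from 19737984 to 19748298, encodes a cytosolic enzyme known from cornea and from carcinomas and as a gene of the aryl hydrocarbon receptor battery. Its counts were 568, 504 and 613 in controls and 1001, 1006 and 1080 with overexpression, again without overlap. The level rose from a mean of 45.8 ± 5.72 CPM to 78.8 ± 6.90 CPM (SD, n = 3 each), which gives a log2 fold change of 0.78 with a 95% interval of 0.59 to 0.97 (edgeR, standard error 0.09, adjusted p = 6.58e-06).

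ALDH3A2 (Entrez gene 224), on chromosome 17 from 19648136 to 19677596, encodes the fatty aldehyde dehydrogenase of the endoplasmic reticulum, the enzyme missing in Sjögren-Larsson syndrome. It had 2807, 2500 and 2524 reads in the control lines and 1113, 1511 and 1395 reads in the overexpressing lines. Every control library was well above every overexpressing library. SLC47A2 overlaps ALDH3A2 on the opposite strand and was not in the table. Its level fell from a mean of 212 ± 11.2 CPM to 102 ± 7.33 CPM (SD, n = 3 each), with a log2 fold change by edgeR of -1.06 (standard error 0.06, adjusted p = 1.17e-08).

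ALDH3A2 and ALDH3A1 are neighbours on chromosome 17 and moved in opposite directions. ALDH3A2 lies on the plus strand and ALDH3A1 on the minus strand, so their 3′ ends face each other with 60387 bp between them, and they are adjacent among the analysed genes in order of lowest coordinate. In counts there were 0.202, 0.202 and 0.243 ALDH3A1 reads for each ALDH3A2 read in controls and 0.899, 0.666 and 0.774 with overexpression. This ratio does not depend on the scaling between libraries, and it was 3.60-fold higher with overexpression (two-sided exact permutation p = 0.1, the smallest possible). The ratio of ALDH3B1 to ALDH3A2 reads was 6.01-fold higher and that of ALDH3B1 to ALDH1A3 reads 4.18-fold higher, each without overlap of the groups. In each ratio the first gene rose and the second fell without overlap, so the ratios add no separate support. SLC47A1, the analysed gene before ALDH3A2 in that order and the gene of a cation transporter, had 71, 72 and 72 counts in controls and 1, 0 and 0 with overexpression. ULK2, the next after ALDH3A1, stood at a log2 fold change of -0.40 (edgeR, adjusted p = 0.0108). These neighbours were looked at after the ALDH values were seen.

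ALDH1A3 carried most of the ALDH reads. It encodes retinaldehyde dehydrogenase 3, an enzyme that makes retinoic acid, and lies (Entrez gene 220) on chromosome 15 from 100879831 to 100916626. Its counts were 12676, 12797 and 11345 in controls and 7886, 9317 and 9864 with overexpression, and the lowest control lay above the highest overexpressing library. The level fell from a mean of 998 ± 34.9 CPM to 686 ± 11.2 CPM (SD, n = 3 each), and in controls it ranked 85 of the 12703 genes by CPM. Its log2 fold change of -0.54 with a 95% interval of -0.63 to -0.45 (edgeR, standard error 0.04, adjusted p = 2.37e-07) is the member value closest to the fold change threshold from inside, and -0.68 of ALDH7A1 is the closest from outside. ALDH1A3-AS1, a long non-coding RNA on the opposite strand that was not in the table, shares 40.2% of the 75-base stretches of the ALDH1A3 transcript, and whether the counting used strand was not given in the sources used here.

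ALDH2 (Entrez gene 217), on chromosome 12 from 111766933 to 111817532, encodes the main mitochondrial enzyme that clears acetaldehyde. It had 226, 250 and 211 reads in the control lines and 122, 127 and 145 reads in the overexpressing lines, and the groups stood clearly apart. Its level fell from a mean of 18.6 ± 1.26 CPM to 10.02 ± 0.685 CPM (SD, n = 3 each), which gives a log2 fold change by edgeR of -0.90 (standard error 0.10, adjusted p = 4.30e-06). Of the 75-base stretches of its transcript, 7.42% also occur in transcripts of other genes, so a part of its counts could be uncertain. ALDH1B1 (Entrez gene 219), on chromosome 9 from 38392702 to 38398661, encodes a second mitochondrial acetaldehyde dehydrogenase whose transcript has only 2 exons. It had 476, 455 and 443 reads in the control lines and 459, 439 and 443 reads in the overexpressing lines, with 37.3 ± 0.662 and 34.3 ± 4.62 CPM (SD, n = 3 each). Overexpressing library 1 lay above the controls at 39.7 CPM and the other 2 lay below them at 32.0 and 31.4 CPM. The log2 fold change was -0.12 (95% interval -0.31 to 0.06, edgeR adjusted p = 0.236). Without that library it was -0.23 with an adjusted p of 0.00922, so 1 library decides this result.

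ALDH7A1 (Entrez gene 501), on chromosome 5 from 126541841 to 126595219, encodes antiquitin, which acts in the breakdown of lysine and against osmotic and oxidative stress. Its counts were 1388, 1422 and 1287 in controls and 820, 942 and 969 with overexpression. The highest overexpressing library lay well under the lowest control. The level fell from a mean of 111 ± 2.77 CPM to 69.4 ± 1.29 CPM (SD, n = 3 each), which gives a log2 fold change by edgeR of -0.68 (standard error 0.05, adjusted p = 1.88e-07). Tested against the fold change threshold itself with glmTreat, ALDH7A1 was the only 1 of the 5 differentially expressed members no longer called. ALDH9A1 (Entrez gene 223), on chromosome 1 from 165662216 to 165698562, encodes the enzyme that oxidises trimethylaminobutyraldehyde on the way to carnitine. It had 1658, 1512 and 1535 reads in the control lines and 1371, 1619 and 1620 reads in the overexpressing lines, and after scaling had 128 ± 5.49 and 117 ± 1.95 CPM (SD, n = 3 each). The scaled groups did not overlap, but the log2 fold change of -0.13 (95% interval -0.24 to -0.01) did not pass the test (edgeR adjusted p = 0.0533). Without control replicate 2 the adjusted p was 0.0428 and without overexpressing replicate 1 it was 0.0484.

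**Figure D2:**
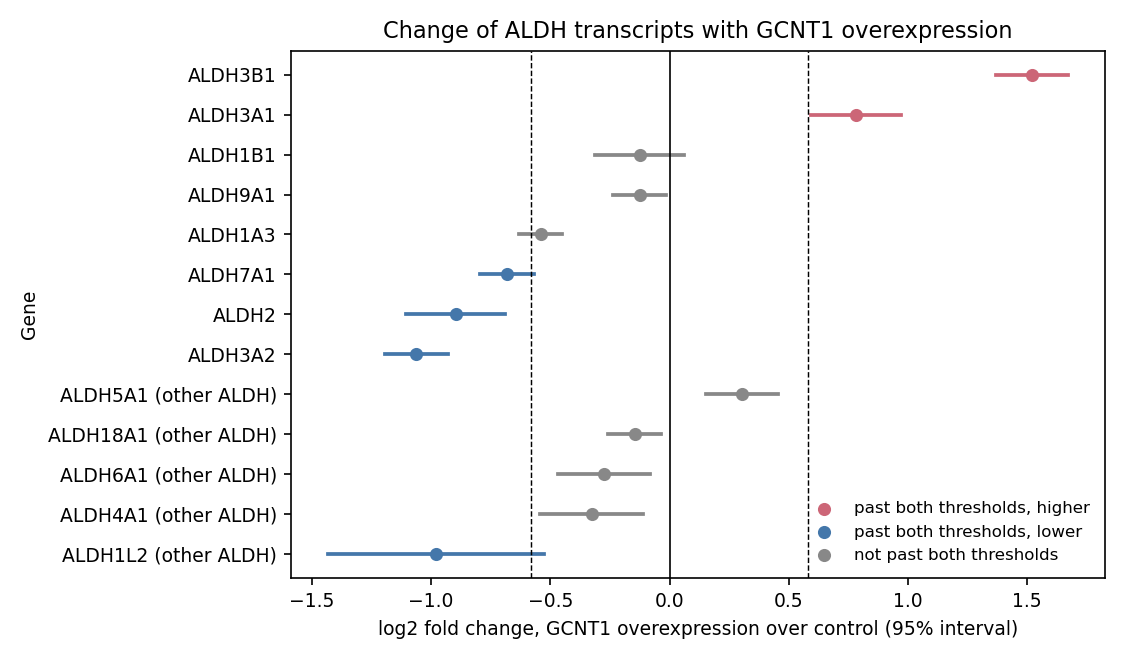
Log2 fold change of GCNT1 overexpression over control (x, points) with 95% intervals (lines) for the 8 ALDH members and the 5 other ALDH genes in the table (y), with dashed lines at the fold change threshold. ALDH3B1 at 1.52 and ALDH3A2 at -1.06 are the ends of the 8 members, and ALDH1A3 lies just inside the lower dashed line.

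Added over the 8 members, the ALDH reads came to 1569.5 ± 28.4 CPM in controls and 1150 ± 7.85 CPM with overexpression (SD, n = 3 each), with library values of 1591, 1581 and 1537 against 1157, 1141 and 1152. The difference in the summed level was -419 CPM, and ALDH1A3 alone had a difference of -312 CPM, which is 74.4% of it. The 4 members that fell past the adjusted p value differed by -473 CPM in sum and the 2 that rose by 67.1 CPM. The share of ALDH reads from ALDH1A3 was 63.6% ± 1.31 in controls and 59.7% ± 0.927 with overexpression (SD, n = 3 each). That of ALDH3A2 was 13.5% ± 0.727 and 8.85% ± 0.699. ALDH3B1 held 1.17% ± 0.071 of ALDH reads in controls and 4.56% ± 0.047 with overexpression, and ALDH3A1 held 2.92% ± 0.413 and 6.85% ± 0.558. These shares are of reads and depend on transcript length.

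Levels of different genes were compared per length, as CPM per kb of the MANE Select transcript, the reference transcript shared by RefSeq and Ensembl. In controls ALDH1A3 was highest with 288 ± 10.1 CPM per kb (SD, n = 3), followed by ALDH3A2 with 57.4 ± 3.02 and ALDH9A1 with 53.3 ± 2.29, whose library ranges overlapped. ALDH3A1 with 27.96 ± 3.49, ALDH7A1 with 23.3 ± 0.58, ALDH1B1 with 12.3 ± 0.219, ALDH3B1 with 6.51 ± 0.38 and ALDH2 with 1.95 ± 0.132 CPM per kb came next, each apart from the next member for this length. Over the union of all annotated exons ALDH1B1 in controls, at 11.96 ± 0.212 CPM per kb, overlapped ALDH3A1 at 11.8 ± 1.47 and lay above ALDH7A1 at 6.20 ± 0.154. With overexpression ALDH1A3 was still highest at 198 ± 3.24 CPM per kb. ALDH9A1 at 48.9 ± 0.816 and ALDH3A1 at 48.1 ± 4.21 then overlapped, ALDH3A2 followed at 27.5 ± 1.98, and ALDH3B1 at 18.7 ± 0.236 had passed ALDH7A1 at 14.6 ± 0.27 and ALDH1B1 at 11.3 ± 1.53 CPM per kb. ALDH2 was lowest of the 8 in both groups, at 1.05 ± 0.0716 CPM per kb with overexpression. The length used moves some of these places: over the union of all annotated exons, which is 15331 bp for ALDH3A2 and 3703 bp for its MANE Select transcript, ALDH3A2 had 13.9 ± 0.729 CPM per kb in controls and 6.63 ± 0.478 with overexpression, both below ALDH9A1. Over that length ALDH3B1, at 7.93 ± 0.1 CPM per kb with overexpression, lay above ALDH7A1 at 3.87 ± 0.0718 but stayed below ALDH1B1 at 11.02 ± 1.48, so its place above ALDH1B1 depends on the length used. ALDH9A1 and ALDH3A1, which overlapped per MANE Select transcript with overexpression, were apart over the exon union at 38.9 ± 0.65 and 20.3 ± 1.78 CPM per kb.

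**Figure D3:**
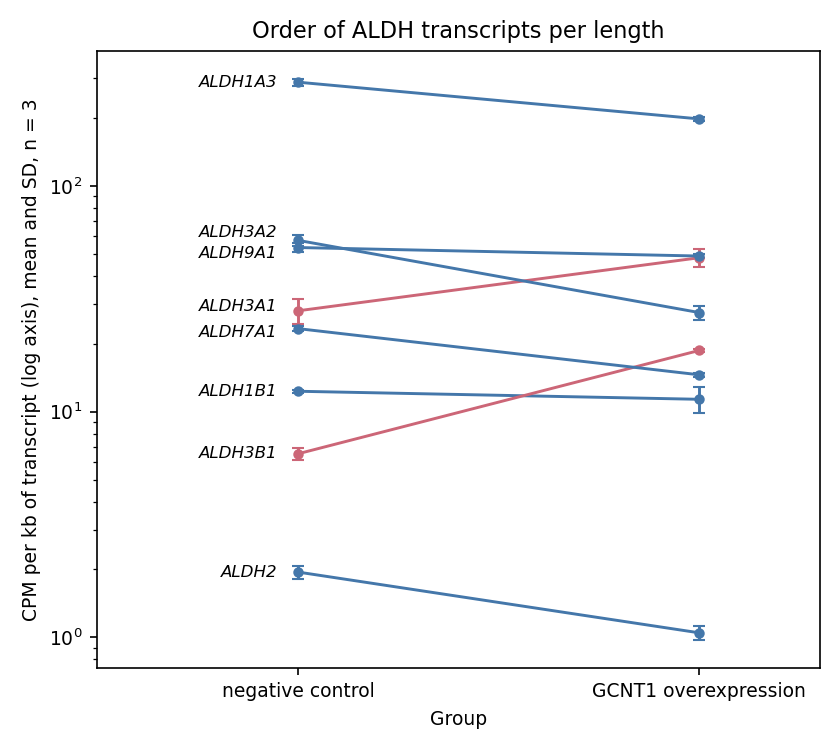
Mean CPM per kb of transcript on a log axis (y) with SD over 3 libraries (bars) for the 8 ALDH genes in control and GCNT1 overexpressing lines (x). ALDH3A1 and ALDH3B1 are the rising lines, and the line of ALDH3B1 crosses those of ALDH7A1 and, with this length but not over the exon union, ALDH1B1.

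Of the 9 human ALDH genes outside the list, 5 were in the table and ALDH1A2, ALDH1L1, ALDH3B2 and ALDH8A1 were not analysed here. Of these 5, 1 was differentially expressed and all passed the adjusted p value, against 19.3% and 57.6% of all genes. The differentially expressed gene was ALDH1L2, a mitochondrial folate enzyme. It had 64, 74 and 43 reads in the control lines and 25, 32 and 41 reads in the overexpressing lines, with the groups close to each other, and its log2 fold change was -0.98 (edgeR standard error 0.21, adjusted p = 0.00133). ALDH5A1, which oxidises succinate semialdehyde in the breakdown of GABA, rose past the adjusted p value from 44.1 ± 2.24 to 54.5 ± 3.88 CPM (SD, n = 3 each). The other 3 measured, mitochondrial enzymes of amino acid metabolism, passed it in the other direction by less than the fold change threshold, ALDH4A1 of proline breakdown (log2 fold change -0.33), ALDH6A1 of valine breakdown (-0.27) and ALDH18A1 of proline synthesis (-0.15). ALDH18A1 lost this with the replicate number as a block (adjusted p = 0.0792) and with library size in place of TMM (0.142), ALDH6A1 under DESeq2 (0.0529) and with library size (0.0527). Single libraries also decided these calls: the adjusted p of ALDH4A1 was 0.0609 without control replicate 3 and 0.0570 without overexpressing replicate 2. ALDH6A1 lost the call without control replicate 2 or 3 or overexpressing replicate 3 (0.0513 to 0.0811). ALDH18A1 lost it without control replicate 1 or 3 or overexpressing replicate 2 or 3 (0.0636 to 0.0993). No 75-base stretch of any of the 13 ALDH transcripts occurred in a transcript of another functional ALDH gene, while 2.96% of those of ALDH7A1 occurred in its pseudogene ALDH7A1P1.

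The genes around ALDH1A3 in the retinoic acid route were then compared, from retinol supply to receptors. Retinol is carried by RBP4 in plasma, stored as esters by LRAT, and oxidised to retinaldehyde by RDH10 before ALDH1A enzymes act on it. Of 15 supply genes 7 were in the table, with 1 higher, 4 lower and 2 not differentially expressed (8.28% and 11.1% of all genes were higher and lower), and a median log2 fold change of -0.74. RBP4 fell from 1160, 1153 and 1126 to 48, 51 and 55 counts (log2 fold change -4.57, edgeR standard error 0.08, adjusted p = 1.13e-13). LRAT fell from 29, 35 and 30 to 2, 5 and 2 counts (log2 fold change -3.43, standard error 0.34). RDH10 fell from 86.2 ± 3.07 to 39.8 ± 1.81 CPM (SD, n = 3 each, log2 fold change -1.12, edgeR adjusted p = 6.19e-09). DHRS9, another retinol dehydrogenase, stood at a log2 fold change of -0.74 (edgeR, adjusted p = 0.0142), which was -0.52 (adjusted p = 0.0869) in the same edgeR test without control replicate 1. The cellular retinol-binding protein gene RBP7 rose from 6.08 ± 0.522 to 10.2 ± 0.978 CPM. Of 6 genes of retinoic acid binding and clearance 2 were in the table, and both were called lower, where 11.1% of all genes were. CRABP2 fell from 49.9 ± 1.79 to 27.5 ± 1.06 CPM (log2 fold change -0.86) and FABP5 from 80.8 ± 4.93 to 51.8 ± 1.68 CPM (-0.64). CRABP1 and the CYP26 genes that degrade retinoic acid were not analysed here.

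Receptors and known target genes went both ways. Of 6 receptor genes 4 were in the table. RARB, itself a direct target of retinoic acid, had 22, 24 and 29 reads in controls but 0 in every library with overexpression, which is at least 8.88-fold lower with a floor of 3 counts per library. RXRA rose from 47.7 ± 1.62 to 74.1 ± 3.75 CPM (SD, n = 3 each, log2 fold change 0.63, edgeR adjusted p = 1.53e-06), while RARA (0.35) and RARG (0.21) passed the adjusted p value only. Among 6 measured target genes, ICAM1, an adhesion molecule, rose from 404, 405 and 399 to 1516, 1808 and 1584 counts (log2 fold change 1.93). PLAAT4 rose from 26, 24 and 24 to 60, 49 and 49 counts (log2 fold change 1.00). TGM2 lay just under the fold change threshold at 0.579, and DHRS3 had 0.21. No retinoid was measured.

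**Figure D4:**
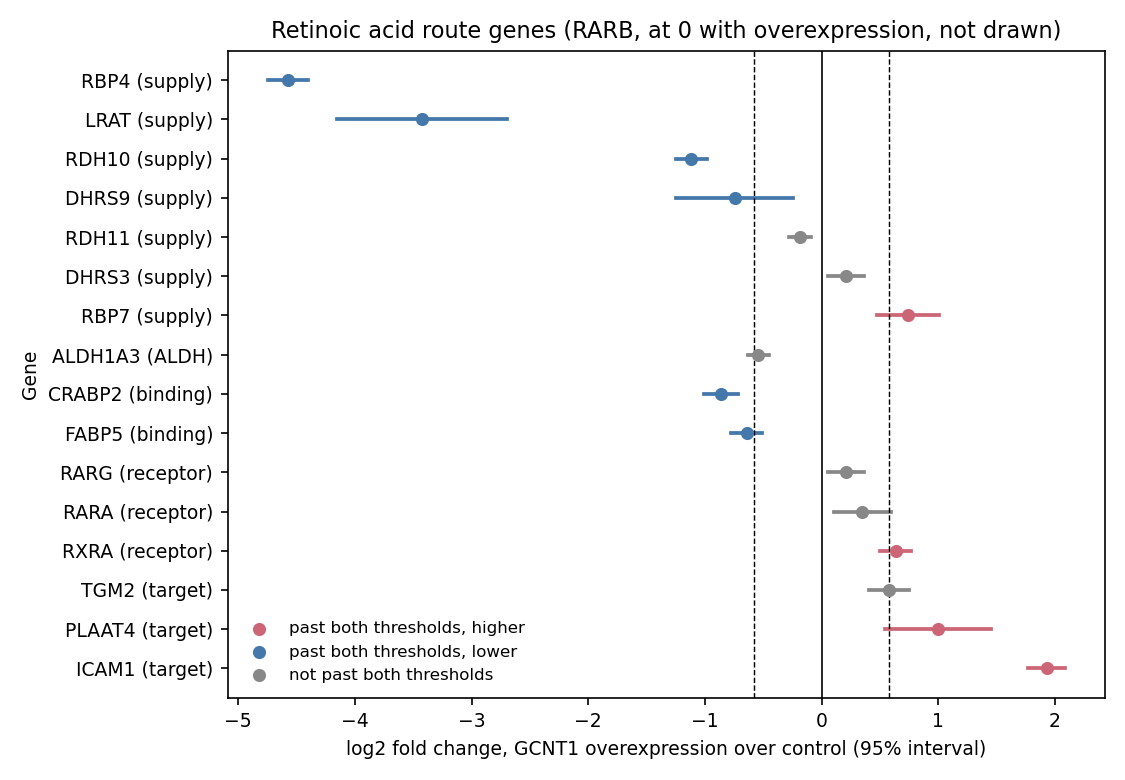
Log2 fold change of GCNT1 overexpression over control (x, points) with 95% intervals (lines) for ALDH1A3 and genes of the retinoic acid route, labelled by role (y), with dashed lines at the fold change threshold. Of the genes drawn, RBP4 at -4.57 lies farthest left and ICAM1 at 1.93 farthest right, and RARB, at 0 counts with overexpression, is not drawn.

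The aryl hydrocarbon receptor controls ALDH3A1 in some tissues, and 8 of 11 genes of its battery were in the table, with 1 higher, 3 lower and 4 not differentially expressed, beside 8.28% higher and 11.1% lower among all genes. AHR, the receptor, fell from 81.2 ± 4.27 to 49.0 ± 4.89 CPM (SD, n = 3 each, log2 fold change -0.73). Its partner gene ARNT2 had a log2 fold change of -2.86 and its repressor AHRR one of -2.34 (from 288, 290 and 291 to 56, 64 and 63 counts). CYP1A1, the classic target, rose from 9, 2 and 6 to 23, 30 and 19 counts (log2 fold change 1.96, edgeR standard error 0.39, adjusted p = 0.000727). NQO1, a target of both AHR and NRF2, had a log2 fold change of -0.28.

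The genes that form or remove the substrates of the other members were also counted. For fatty aldehydes, the substrates of ALDH3A2, 8 of 10 genes were in the table and 1 was differentially expressed, against 19.3% of all genes. This was SPHK1, which makes sphingosine 1-phosphate, rising from 49, 60 and 56 to 592, 510 and 580 counts (log2 fold change 3.26, edgeR standard error 0.14, adjusted p = 8.64e-10). SGPL1, the lyase that splits it into a fatty aldehyde, stood at a log2 fold change of -0.12 (edgeR, adjusted p = 0.0773). FAR2, a fatty acyl reductase, lay just inside the threshold at -0.57. In the lysine, choline and carnitine steps around ALDH7A1 and ALDH9A1, 5 of 9 genes were measured. AASS, the first enzyme of the saccharopine route of lysine breakdown, fell from 181, 138 and 144 to 46, 67 and 53 counts (log2 fold change -1.57). AADAT, which acts on aminoadipate, the product of antiquitin, rose by a log2 fold change of 0.61, which was 0.54 without control replicate 2 and 0.56 without overexpressing replicate 3, under the fold change threshold. Among 6 measured amine oxidation genes, sources of aldehydes from amines, MAOA fell from 45, 34 and 45 to 3, 2 and 4 counts (log2 fold change -3.82), whereas AOC2 (0.81) and AOC3 (1.20) rose at low levels of at most 43 counts.

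Other routes for removing aldehydes were counted as well. Of 19 reductases and oxidases 8 were in the table and AKR1C3, a ketosteroid and aldehyde reductase, was differentially expressed (1 of 8, against 19.3% of all genes), falling from 37, 49 and 54 to 11, 8 and 9 counts (log2 fold change -2.40). AOX1, an aldehyde oxidase, had a log2 fold change of 0.35 and AKR1A1 one of -0.50, both past the adjusted p value. ADH5, the only alcohol dehydrogenase in the table, had 130.2 ± 3.00 and 130.5 ± 4.79 CPM (SD, n = 3 each, adjusted p = 0.957). The 5 measured glutathione transferase and glyoxalase genes had log2 fold changes between -0.43 and -0.11, under the fold change threshold. Of these 5 genes 3 (GSTP1, GLO1 and HAGH) passed the adjusted p value, where 57.6% of all genes did. Among 6 measured markers of tumour-initiating cells, the populations often sorted by ALDH activity, 1 was differentially expressed, against 19.3% of all genes. This was the integrin gene ITGA2 (log2 fold change -1.02). EZH2 (0.34) and KLF4 (0.18) were higher and BMI1 (-0.54) lower past the adjusted p value, under the fold change threshold. CD44 was at 502 ± 9.67 and 495 ± 12.4 CPM (adjusted p = 0.701), and PROM1 was not in the table. Over the 69 measured genes of these lists, without repeats, 9 were higher, 15 lower and 45 not differentially expressed, where 8.28% of all genes were higher and 11.1% lower, with a median log2 fold change of -0.15.

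The position of the members on the chromosomes was compared with their change. For the 50 analysed genes nearest in order, 25 to either side except near chromosome ends, the median log2 fold change was 0.33 around ALDH1A3 and 0.21 around ALDH2, both members that fell. Relative to these medians ALDH1A3 was at -0.87 and ALDH2 at -1.11. Around the other 6 members the median lay between -0.09 (ALDH9A1) and 0.10 (ALDH3B1). The median of -0.05 around ALDH7A1 covers genes going both ways. After ALDH7A1 in order of lowest coordinate, genes such as MARCHF3 (-1.31), SLC12A2 (-1.59) and FBN2 (-1.04) were lower. Before ALDH7A1, genes such as CEP120 (0.41) and CSNK1G3 (0.45) were higher. Whether ALDH7A1 shares its fall with the genes beside it was not tested. Relative to their neighbours ALDH3B1 was at 1.42 and ALDH3A2 at -1.10.

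**Figure D5:**
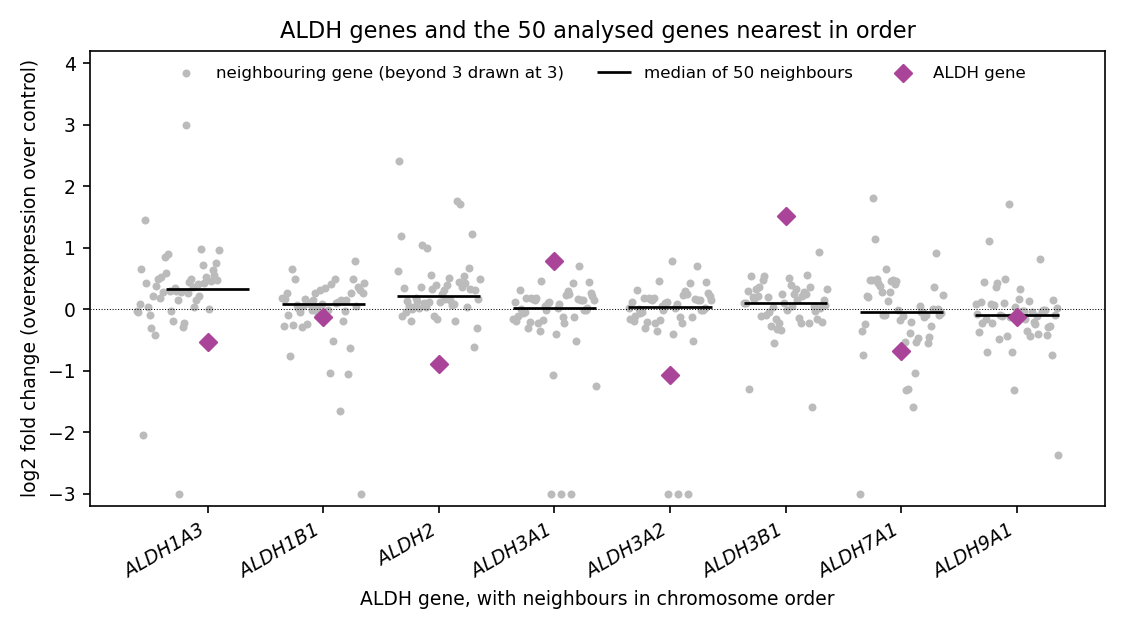
Log2 fold change of GCNT1 overexpression over control (y) for each of the 8 ALDH genes (diamonds) and the 50 analysed genes nearest in chromosome order (grey points in chromosome order, those beyond 3 in either direction drawn at 3), with the median of the neighbours as a bar. ALDH9A1 and ALDH1B1 lie close to the bar, and the other 6 members lie apart from it, though some genes beside ALDH7A1 were also lower.

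Across the 6 libraries the genes with the log2 CPM pattern most like that of ALDH3B1 were GSE1, EPB41L3 and ETFA (Pearson's r = 0.9996, 0.9996 and 0.9994), and for ALDH3A2 they were RAB1A, CAST and SLC22A23 (0.9996, 0.9996 and 0.9993). These values describe 6 libraries in 2 groups, and any gene with a steady difference between the groups comes close to them.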

How the data were processed

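The authors prepared stranded mRNA libraries, read 75 bases from 1 end, trimmed adapters (Cutadapt), aligned to hg38 (HISAT2) and counted reads in genes (featureCounts). They deposited raw counts per gene, 1 column per library, without pooling. The annotation, strand setting and filter on low counts were not given in the sources used here. The third highest library of any gene held 1.01 CPM or more when scaled by library total alone, without TMM factors.

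All 6 columns were used, and 12661 of 12703 Entrez identifiers matched a RefSeq symbol. Libraries of 1 group differed by more than sampling noise (chi-square per degree of freedom 1.65 to 5.61). The main test was edgeR 4.0.16 under R 4.3.3 (filterByExpr, which kept every gene, TMM, quasi-likelihood test) and Benjamini-Hochberg adjustment over all genes. At these depths 3 counts, the floor, are 0.217 to 0.263 CPM by library total alone, without TMM factors, which covers counting error only. The bound for RARB used the floor with TMM factors, a mean of 0.230 CPM over the overexpressing libraries. Alternatives were limma-voom (limma 3.58.1, the method of the study), DESeq2 1.42.0, RLE factors, library size alone, other filters, glmTreat, the replicate block and each library left out. The tests were run on simulated data first.

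Transcript lengths and overlaps came from GENCODE 44, upstream sequences and gene positions from RefSeq (GRCh38.p14), in Python 3.11.15. Named genes were the members, the other measured ALDH genes, GCNT1, the called genes of each list and, for the 2 members with the smallest p, the 3 genes most like them over the libraries; further genes of the lists were named after their values were seen. Some genes of the lists are not reported here. The members and lists were chosen with earlier results of these data known.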

Additional observations from a re-analysis of the deposited data

How the results depend on the processing

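The 5 calls among the ALDH members (ALDH3B1 and ALDH3A1 higher, ALDH3A2, ALDH2 and ALDH7A1 lower) were the same under every alternative but glmTreat, which tests against the fold change threshold itself and left 4, without ALDH7A1. glmTreat called 1392 of all genes instead of 2457 and 14 list genes instead of 24. The log2 fold change ranged from 1.49 to 1.58 for ALDH3B1, 0.70 to 0.88 for ALDH3A1, -1.12 to -1.004 for ALDH3A2, -0.93 to -0.83 for ALDH2, -0.70 to -0.62 for ALDH7A1 and -0.57 to -0.48 for ALDH1A3. With each library left out, 6 to 8 members passed the adjusted p value, 8 without overexpressing replicate 1. Library size in place of TMM moved the median of all genes by less than 0.1 to 0.06, and gave 4290 genes higher and 3144 lower past the adjusted p value where TMM gave 3593 and 3721, with the members at 2 higher and 4 lower in both.

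With the replicate number as a block, 5 members were called, 6 passed the adjusted p value, and 2423 of all genes and 25 list genes were called. Same-numbered libraries had correlations of -0.273, -0.0024 and -0.109 in their deviations from the group means, so the numbers do not pair the samples. GCNT1, DHRS9 and AADAT lost their calls in some fits, GCNT1 and DHRS9 also under DESeq2 (adjusted p = 0.0821 and 0.0602). The depth limits genes such as RARB, LRAT, MAOA, AOC3 and CYP1A1, which had fewer than 50 counts in every library.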
